A study of Oncorhynchus mykiss with 18 samples.

Results

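Small RNA of blood plasma was compared with small RNA of the surrounding tank water after an acute stress in rainbow trout (Oncorhynchus mykiss). Both sample types were taken 1 h after the fish had spent 3 min in air, with 3 stressed plasma and 3 stressed water libraries, 6 of the 18 libraries of the study. The 6 libraries were chosen by their labels, and no measured value entered the choice. Each experimental replicate of the air exposure gave 1 stressed plasma library, from an air-exposed fish, and 1 stressed water library, from water of its tank that was passed through a membrane filter and extracted from it. That equal library numbers mark the same tank for plasma and water is not stated, and a fit with the number as a block is given where it changes a call. The study drew control and stressed water from the same tank and analysed them as paired. The comparison with controls given here used no block, except where the block is named. The remaining groups were control plasma, control water, and stressed and control epidermal mucus, also with 3 libraries each; controls were sampled before the air exposure. All groups are of 1 species, with no genotype or other treatment given in the labels. Plasma came from single fish and was kept only where red cells had not visibly lysed, and water was drawn from a tank that held 2 fish. Plasma and water RNA were isolated with different kits, so that sample type and extraction cannot be told apart in any result given here.

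MicroRNAs (miRNAs) are short RNAs that guide a protein complex to messenger RNAs and lower their translation or stability. They leave cells in vesicles, bound to protein or in cell debris, and remain measurable in blood plasma and in water that holds animals. Many are made mainly in one kind of tissue, and the miRNAs of red cells, white cells, vessel wall, liver, muscle and surface epithelium are among the best known cases in vertebrates. The question of the comparison was which known miRNAs make up the RNA of blood and which that of the water around the same animals.

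Values are given in CPM, counts scaled to a common total of known miRNA counts per library and adjusted by TMM, a method that sets a common scale from the miRNAs that differ least between libraries. CPM is relative to the other miRNAs of a library. With TMM factors from 0.7099 (water replicate 3) to 1.734 (plasma replicate 1), it is not a plain percentage of known counts. Percentages of known counts are given without these factors. The amount of RNA per mL was not measured by these counts, and more of one miRNA cannot be told apart from less of the others. Called are miRNAs with p of 0.05 or less in the quasi-likelihood test of edgeR, with a false discovery rate (FDR, the adjusted p over all tested miRNAs) below 0.1, and with a log2 fold change above 2 or below -2. Log2 fold changes are stressed plasma over stressed water, followed by their standard error (SE), and a positive value means higher in plasma. The SE is approximate: it is the absolute log2 fold change divided by the square root of the F value of the test. Names are those of Atlantic salmon miRNAs in the deposited table. Several rows of that table have the same counts under different arm or copy names, for example miR-203a-2-5p, miR-203a-3p and miR-203a-5p, so the arm of a miRNA cannot be told from its row name; each such set was kept once.

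The table holds 4884 rows, most of them predicted miRNAs, and only rows with the name of a known miRNA were used. After 18 copies with identical counts were dropped, 179 known miRNAs had a count in at least 1 of the 6 libraries and 15 had none; 42 of the 179 failed the filter on low counts, and the rest were tested. Known miRNAs had 3698011 to 12627475 counts in stressed plasma and 2683945 to 4304819 counts in stressed water, which was 85.24% to 95.5% of the plasma counts and 77.76% to 79.51% of the water counts in the table. The table totals still hold the dropped copies. With the copies kept, known rows took 87.95% to 97.25% of the plasma counts and 88.53% to 90.95% of the water counts, and the groups overlapped. Plasma replicate 2 was the deepest library and stood apart from the other plasma libraries in that miR-100a-5p alone took 38.6% of its known counts. Water replicate 3 stood apart from the other water libraries in miR-10b-5p, with 176500 CPM against 61790 and 44750 CPM in water replicates 1 and 2. Each water library had rows that were at 0 in it alone. Among them were miR-26a-5p and miR-221-3p in replicate 3, miR-196a-5p in replicate 1 and miR-106a-5p in replicate 2. No pair of libraries of a group agreed within sampling noise. The sample types were checked against marker miRNAs. The skin epithelium list (miR-203 and miR-205) took 0.0141% to 0.0796% of known counts in stressed plasma and 5.51% to 8.07% in stressed water. Of the lists set for plasma, red blood cell took 0.0438% to 0.148% in plasma and 0.00122% to 0.00399% in water. Leukocyte took 3.19% to 5.47% and 0.864% to 1.07%, and endothelium and thrombocyte 0.756% to 2.94% and 0.224% to 0.315%. Liver and gut overlapped, at 0.0493% to 0.244% and 0.1015% to 0.171%. Not set for this check, the smooth muscle list (miR-143 and miR-145) took 1.12% to 1.92% in plasma and 0.0323% to 0.0736% in water.

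Blood and water differed in a large part of their known miRNAs. Of the tested miRNAs 49 were called (35.8%), 29 of them higher in stressed plasma (21.2%) and 20 lower (14.6%). These include 6 higher rows at 0 in all water libraries and 2 lower rows at 0 in all plasma libraries, which passed the filter through 1 group alone. In every one of the 49 the 3 plasma and 3 water values did not overlap. That was so for 93 of all tested (67.9%), with plasma above water in 58 (42.3%) and water above plasma in 35 (25.5%). The miRNAs higher in plasma included miR-144-5p of red cells, miR-150-5p of lymphocytes, miR-126-5p of endothelium, the smooth muscle rows miR-143-5p and miR-145-5p and miR-122-5p of liver, though the lists of liver and gut, leukocyte and endothelium and thrombocyte miRNAs were mixed, and those lower in plasma included 11 of the 13 tested rows of the 4 epithelial lists (skin epithelium, miR-200 family, miR-183 cluster and miR-375). The median log2 fold change of all tested miRNAs was 0.78, not 0, and it was lower by 0.32 with DESeq2 size factors and higher by 0.41 with scaling by library totals. Scaling by library totals gave 40 higher and 15 lower calls in place of 29 and 20. No called miRNA changed its direction under either scaling.

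**Figure D1:**
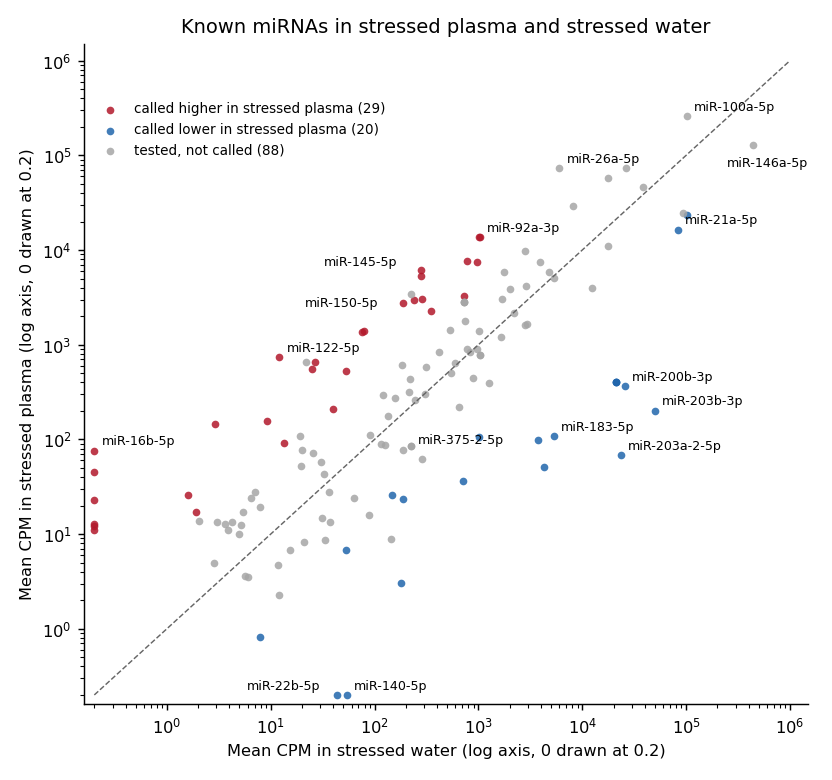
Mean CPM of each tested miRNA in stressed plasma (vertical axis) and stressed water (horizontal axis), both on log axes, n = 3 libraries each, with a mean of 0 drawn at 0.2. Red points (29) were called higher in plasma and lie above the dashed line of equal level, blue points (20) were called lower and lie below it, and the most abundant miRNAs at the upper right, miR-100a-5p and miR-146a-5p, were not called.

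Of 12 tested rows in 3 lists of blood cell miRNAs, 7 were called higher in plasma and 1 lower, beside 21.2% and 14.6% of all tested. Among the 7 was miR-16b-5p, at 0 in all water libraries, which passed the filter on low counts through plasma alone. The red blood cell list was represented by miR-144-5p, which is made with miR-451 from a cluster active in developing red cells; miR-451 and miR-486 were not analysed here. It had 827, 548 and 606 CPM in stressed plasma, against 15.4, 11.2 and 54.3 CPM in stressed water. The lowest plasma library was 10.1 times the highest water library, and the log2 fold change was 4.61 (SE 0.78, FDR 0.00343).

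Of the family of miR-15 and miR-16, which share a seed and are abundant in blood cells, 4 of 6 tested rows were called higher and none lower. Over all tested these shares were 21.2% and 14.6%. The family had a median log2 fold change of 2.85 beside 0.78 over all tested. Among the 4 calls, that of miR-16b-5p was set by the filter, as this row had no counts in water. The most abundant row of the family, miR-16a-5p, had 3600, 10660 and 8155 CPM in stressed plasma, against 926, 1132 and 875 CPM in stressed water. Plasma replicate 1 was the lowest plasma library, and still 3.18 times the highest water library (log2 fold change 2.93, SE 0.46, FDR 0.0025). The call of miR-16a-5p was lost with the control plasma and control water libraries added to the fit. With 305, 799 and 479 CPM in stressed plasma, against 45.5, 52.5 and 61.2 CPM in stressed water, miR-15a-3p had the same order of plasma libraries, and miR-15d-5p followed with 47.3, 131.5 and 97.2 CPM in stressed plasma, against 16.5, 9.42 and 14.7 CPM in stressed water. Values of miR-15b-5p and miR-15c-5p overlapped between the groups.

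In the leukocyte list 2 of 5 tested rows were called higher and 1 lower, beside 21.2% and 14.6% of all tested. The other 2 were not called, and the median log2 fold change of the list was 1.84. The lymphocyte miRNA miR-150-5p had 1127, 4094 and 3055 CPM in stressed plasma, against 171, 204.7 and 184 CPM in stressed water (log2 fold change 3.89, SE 0.55, FDR 0.00188). A miRNA of all blood cell lineages, miR-142a-5p, had 1537, 5262 and 2407 CPM in stressed plasma, against 282, 205.4 and 374 CPM in stressed water (log2 fold change 3.42, SE 0.57). Water libraries were close to each other in both, whereas in CPM the plasma libraries spread by 3.63 and 3.42 times, with replicate 2 the highest.

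Called lower was miR-155-5p, known from activated lymphocytes and macrophages in mammals. It had 35.2, 9.81 and 24.7 CPM in stressed plasma, against 214, 198 and 147 CPM in stressed water, a log2 fold change of -3.00 (SE 0.62, FDR 0.00814). All water libraries were above all plasma libraries, the closest pair by 4.19 times. Both miR-181 rows were above water in every plasma library and had a log2 fold change of 1.84 (SE 0.54) for miR-181a-5p and 1.73 (SE 0.40) for miR-181c-5p, under the threshold of 2. The marker miR-223 was not analysed here, and miR-142b-5p was at 0 in all 6 libraries.

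For miR-126-5p, which is made in endothelium, the values were 8668, 7639 and 6713 CPM in stressed plasma, against 601, 699 and 1009 CPM in stressed water. In CPM the highest plasma library was 1.29 times the lowest, and the log2 fold change was 3.32 (SE 0.32, FDR 0.00078). As percentages of known counts, without the TMM factors, plasma replicates 1 to 3 held 1.5%, 0.5982% and 0.786%. The smooth muscle pair miR-143 and miR-145, which are transcribed from a single cluster in vertebrates, was called with both members. Stressed plasma held 5595, 5804 and 4573 CPM of miR-143-5p, against 223.1, 154.7 and 461 CPM in stressed water (log2 fold change 4.25, SE 0.51, FDR 0.00106). Stressed plasma held 5105, 8248 and 5144 CPM of miR-145-5p, against 156, 143.4 and 541 CPM in stressed water (log2 fold change 4.46, SE 0.68, FDR 0.0025). In CPM water replicate 3 was the highest water library in miR-126-5p, miR-143-5p, miR-145-5p and miR-144-5p. The same held in 15 of the 23 miRNAs called higher in plasma that had a count in water. Its TMM factor was the lowest, and as a percentage of known counts miR-126-5p was at 0.07164% in it and 0.07191% in water replicate 2.

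Of miR-199a-5p and miR-214-5p, which come from a common precursor transcript in vertebrates, the first had 5258, 933 and 2746 CPM in stressed plasma, against 163, 255 and 308 CPM in stressed water, and the second had 977, 196 and 474 CPM in stressed plasma, against 15.7, 22.1 and 37.0 CPM in stressed water. Both were called higher in plasma, with log2 fold changes of 3.62 (SE 0.70) and 4.46 (SE 0.79), and in both plasma replicate 1 was the highest and replicate 2 the lowest. The same order held for miR-455-5p, with 295, 30.04 and 142.9 CPM in stressed plasma, against 10.2, 5.80 and 11.5 CPM in stressed water (log2 fold change 4.09, SE 0.95). The other row of the miR-199a hairpin, miR-199a-3p, overlapped between the groups with 875, 209 and 649 CPM in stressed plasma, against 231, 268 and 439 CPM in stressed water. In the list of endothelium and thrombocyte miRNAs 2 of 6 tested were called higher and none lower, beside 21.2% and 14.6% of all tested. Both miR-222 rows overlapped, and miR-221-3p had 423 and 434 CPM in water replicates 1 and 2 but 0 in water replicate 3.

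**Figure D2:**
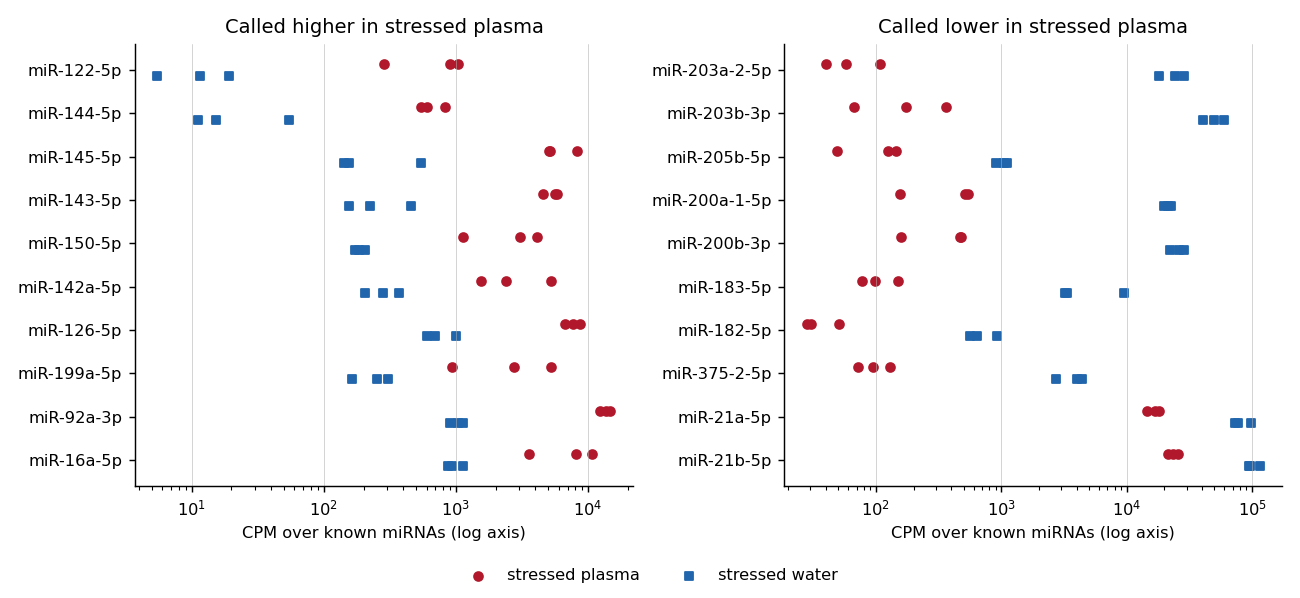
CPM of 20 named miRNAs in each library, on a log axis, with the 3 stressed plasma libraries as red circles above the 3 stressed water libraries as blue squares in each line. In the left panel all red circles lie to the right of the blue squares, and in the right panel all lie to the left. The closest libraries differ by 10.1 times for miR-144-5p, by 3.18 times for miR-16a-5p and by less for miR-199a-5p.

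In the liver and gut list a single member, miR-122-5p, was called higher in plasma. This liver miRNA, which makes up much of the miRNA of hepatocytes, had 895, 286 and 1037 CPM in stressed plasma, against 5.51, 11.6 and 19.3 CPM in stressed water. The log2 fold change was 5.93 (SE 0.83, FDR 0.00187), and the closest libraries differed by 14.8 times. Of 5 tested, 1 was called higher and 2 lower, beside 21.2% and 14.6% of all tested, and the list had a median of -1.69. The 2 lower were miR-148a-5p (48.0, 10.4 and 18.6 CPM in stressed plasma, against 214, 96.0 and 135 CPM in stressed water) and miR-148b-3p (9.06, 1.72 and 9.47 CPM in stressed plasma, against 78.6, 29.7 and 50.7 CPM in stressed water), and both lost the call with library totals, miR-148a-5p also without plasma replicate 3. The gut and kidney miRNA miR-192a-5p was also below water in every plasma library, with a log2 fold change of -1.69 (SE 0.34).

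In the 6 libraries striated muscle miRNAs had counts in plasma alone. Of 8 rows in the list, the 2 rows of miR-1 were at 0 in all 6 libraries, and the other 6 had counts in plasma and 0 counts in all 3 water libraries. The water counts of 10994619 allow a share of up to 2.73e-05% for a miRNA at 0 by counting error alone. In stressed plasma miR-133a-3-5p had 23.0, 7.08 and 38.1 CPM and miR-499a-5p had 11.4, 12.7 and 8.98 CPM, which against 3 counts over the water group is at least 70.1-fold and at least 34.1-fold higher. These 2 members passed the filter on low counts through plasma alone, so that their calls were set by it and add nothing to the values. The list took 0.0027% to 0.0129% of known counts in stressed plasma and 0.00399% to 0.0492% in control plasma, and it was at 0 in all control water libraries. The skeletal muscle miRNA miR-206-3p had 0, 8.50 and 57.3 CPM in the plasma libraries, and miR-133b-5p, miR-499b-3p and miR-499b-5p had 0.327 to 4.22 CPM in them.

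Among the called miRNAs the smallest spread in CPM between plasma libraries was that of miR-92a-3p, the highest at 1.2 times the lowest. As percentages of known counts, without the TMM factors, plasma replicates 1 to 3 held 2.132%, 1.158% and 1.606% of it. Stressed plasma held 12320, 14790 and 13710 CPM of this member of the cluster of miR-17 to miR-92, which is abundant in blood cells, against 899, 1132 and 1029 CPM in stressed water (log2 fold change 3.74, SE 0.26, FDR 0.00026). The row miR-92a-4-5p had nearly the same counts and is not a separate measurement. In the same list miR-92b-3p was called at 31.4, 14.5 and 31.5 CPM in stressed plasma, against 0, 2.54 and 2.29 CPM in stressed water, a call lost without water replicate 2 or 3 and with the replicate block (FDR 0.131), while miR-25-3-5p overlapped. Of 8 tested members of the list of miR-17 to miR-20, which holds its cluster partners, 1 was called higher, beside 21.2% of all tested. This was miR-19a-5p, at 17.5, 14.5 and 19.8 CPM in stressed plasma, against 1.74, 0 and 3.93 CPM in stressed water, and the call was lost without plasma replicate 1 or 3 or water replicate 1 and with the replicate block (FDR 0.12). Further calls higher in plasma were miR-2188-5p (1760, 854 and 1488 CPM in stressed plasma, against 81.5, 55.4 and 91.0 CPM in stressed water), miR-101a-5p (1830, 1079 and 1290 CPM in stressed plasma, against 82.1, 47.1 and 109 CPM in stressed water) and miR-125a-2-3p (253, 50.8 and 128.4 CPM in stressed plasma, against 1.45, 3.62 and 3.60 CPM in stressed water).

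Most rows of the skin epithelium list had a higher share in water than in plasma. The miR-203 rows are those of the epidermis, where miR-203 holds back the renewal of keratinocytes in mammals. For miR-203a-2-5p the values were 58.0, 39.85 and 107 CPM in stressed plasma, against 28780, 18060 and 24120 CPM in stressed water, a log2 fold change of -8.43 (SE 0.59, FDR 0.00026). For miR-203b-3p they were 172, 67.0 and 365 CPM in stressed plasma, against 59940, 40890 and 49690 CPM in stressed water, a log2 fold change of -7.96 (SE 0.81, FDR 0.00078). In mean CPM the water was 346 and 249 times the plasma. Among miRNAs counted in both groups these were the 2 with the lowest log2 fold changes, and miR-203b-3p ranked 6 or 7 in each water library and 66 to 85 in the plasma libraries.

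The second skin miRNA, miR-205, behaved differently by row. Row miR-205b-5p had 144.2, 48.6 and 124.96 CPM in stressed plasma, against 906, 1042 and 1113 CPM in stressed water (log2 fold change -3.27, SE 0.51, FDR 0.0025). Row miR-205a-5p was not called and overlapped, at 69.1, 21.1 and 38.7 CPM in stressed plasma, against 10.7, 31.5 and 54.6 CPM in stressed water. Of the 4 tested rows of the skin epithelium list 3 were called lower in plasma, beside 14.6% of all tested.

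All 5 tested rows of the miR-200 family, which keeps cells in an epithelial state, were called lower in plasma, beside 14.6% of all tested. Stressed plasma held 465, 159 and 477 CPM of miR-200b-3p, against 26340, 22100 and 28820 CPM in stressed water (log2 fold change -6.13, SE 0.56, FDR 0.00077). Stressed plasma held 547, 157 and 511 CPM of miR-200a-1-5p, against 22580, 21530 and 19840 CPM in stressed water (log2 fold change -5.72, SE 0.59, FDR 0.00078). Rows miR-200a-2-5p and miR-200a-3p had nearly the same counts, so the 5 rows are 3 separate measurements. The third, miR-429-3p, had 2.19, 0 and 6.86 CPM in stressed plasma, against 184, 141.99 and 217 CPM in stressed water (log2 fold change -5.91, SE 1.69, FDR 0.0309), and lost its call without plasma replicate 1.

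The miR-183 cluster, made in sensory and surface epithelium, gave 2 calls lower in plasma among 3 tested, beside 14.6% of all tested. Values of miR-183-5p were 150, 77.3 and 99.1 CPM in stressed plasma, against 3247, 3315 and 9482 CPM in stressed water (log2 fold change -5.62, SE 0.65, FDR 0.00106). Those of miR-182-5p were 50.9, 28.1 and 30.2 CPM in stressed plasma, against 559, 638 and 923 CPM in stressed water (log2 fold change -4.28, SE 0.48, FDR 0.00104). The remaining member, miR-96-5p, had 23.9, 2.53 and 0 CPM in stressed plasma, against 102, 77.2 and 253 CPM in stressed water, and with an SE of 1.83 its log2 fold change of -4.03 was not called (FDR 0.109). In all 3 members water replicate 3 was the highest in CPM. As a percentage of known counts miR-182-5p was at 0.06555% in it and 0.06561% in water replicate 2. The miRNA of endocrine and secretory epithelium, miR-375-2-5p, had 128.6, 71.9 and 94.4 CPM in stressed plasma, against 4017, 4377 and 2733 CPM in stressed water (log2 fold change -5.24, SE 0.41, FDR 0.00038). Outside these lists miR-725-5p was called, at 40.5, 16.3 and 96.9 CPM in stressed plasma, against 3485, 3867 and 5393 CPM in stressed water (log2 fold change -6.38, SE 0.81, FDR 0.00135). Close to the filter, miR-301a-5p had 2.03, 0.405 and 0 CPM in stressed plasma, against 7.83, 5.07 and 10.8 CPM in stressed water, and it was called in 8 of 16 alternatives. Its call was lost without plasma replicate 2, without any 1 of the water replicates and with the replicate block. It was also lost with library totals, with no filter and with the control plasma and control water libraries added to the fit. Plasma replicate 2 was the lowest plasma library in 15 of the 20 miRNAs called lower in plasma.

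**Figure D3:**
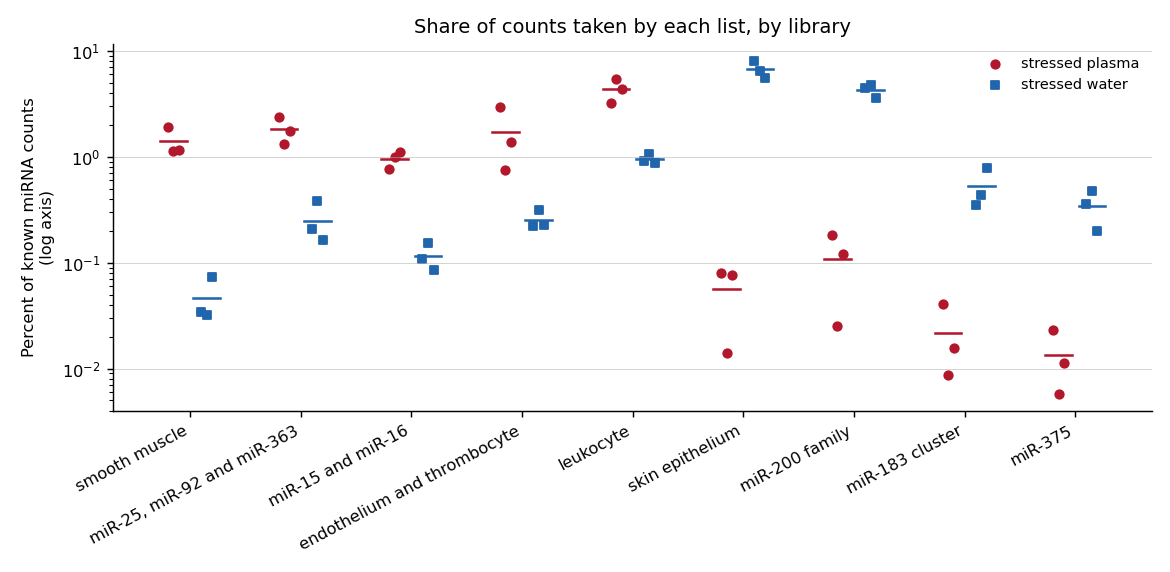
Share of known miRNA counts taken by 9 lists in each stressed plasma library (red circles) and each stressed water library (blue squares), in percent on a log axis, with a line at the mean of 3. The 5 lists at the left lie higher in all plasma libraries (smooth muscle 1.12% to 1.92% against 0.0323% to 0.0736%), and the 4 epithelial lists at the right lie higher in all water libraries (skin epithelium 0.0141% to 0.0796% against 5.51% to 8.07%).

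The lists held these places in every library. Leukocyte miRNAs took 3.19% to 5.47% of known counts in stressed plasma and 0.864% to 1.07% in stressed water, and the list of miR-25, miR-92 and miR-363 took 1.32% to 2.39% in stressed plasma and 0.162% to 0.378% in stressed water. The miR-200 family took 0.0253% to 0.182% in stressed plasma and 3.59% to 4.74% in stressed water. The 29 miRNAs called higher in plasma took 5.24% to 10.4% of known counts in stressed plasma and 0.428% to 0.556% in stressed water, and the 20 called lower took 3.25% to 6.78% in stressed plasma and 23.3% to 35.6% in stressed water, with near-identical rows counted once; these sums follow from the calls and are a description. Much of that water share was miR-21, which is in none of the epithelial lists. In stressed water miR-21a-5p took 5.518% to 10.02% and miR-21b-5p 6.816% to 11.85% of known counts, with near-identical rows kept in the total.

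Of the list of hypoxia and stress miRNAs 2 of 6 tested were called lower in plasma and 1 higher, beside 14.6% and 21.2% of all tested. The 1 higher, miR-29a-3p, was at 0 in all water libraries and passed the filter through plasma alone, so that its call adds nothing to its values. The injury miRNA miR-21 was lower in plasma in both rows. Stressed plasma held 14530, 16750 and 18120 CPM of miR-21a-5p, against 72950, 97370 and 77730 CPM in stressed water (log2 fold change -2.33, SE 0.26, FDR 0.00104). Stressed plasma held 21420, 23270 and 25850 CPM of miR-21b-5p, against 93780, 115200 and 96010 CPM in stressed water (log2 fold change -2.11, SE 0.25, FDR 0.00106). Both fell under the size threshold with library totals, and miR-21b-5p also without water replicate 2. The call of miR-21b-5p was lost too with all known rows kept and with the control plasma and control water libraries added to the fit. The hypoxia miRNA miR-210-5p had 59.8, 51.8 and 63.0 CPM in stressed plasma, against 33.4, 27.5 and 30.8 CPM in stressed water, and with a log2 fold change of 0.93 (SE 0.41, FDR 0.102) it was not called, close to the median of all tested.

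Of the 8 most abundant miRNAs of stressed plasma 5 were also among the 8 most abundant of stressed water. In stressed plasma miR-100a-5p ranked 1 in all libraries with 104300, 492700 and 179300 CPM, against 65920, 66300 and 170900 CPM in stressed water, and the groups overlapped (log2 fold change 1.36, SE 0.71, FDR 0.157). In stressed water miR-146a-5p, a feedback inhibitor of inflammatory signalling in mammals, ranked 1 in all libraries. It had 97570, 157500 and 127400 CPM in stressed plasma, against 511800, 299000 and 498000 CPM in stressed water. Every water library was above every plasma library, and the log2 fold change of -1.78 (SE 0.37, FDR 0.00814) fell short of the threshold of 2. With the DESeq2 test and with DESeq2 size factors miR-146a-5p was called lower in plasma. The fish miRNA miR-462a-5p, with 42750, 44890 and 50590 CPM in stressed plasma, against 29020, 42920 and 44630 CPM in stressed water, overlapped between the groups, and its log2 fold change of 0.25 (SE 0.27) was -0.12 with DESeq2 size factors.

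Of the let-7 family 2 of 11 tested rows were called, both higher in plasma, beside 21.2% called higher over all tested, and the median was 1.71. Its main row, let-7a-5p, had 33430, 84740 and 99980 CPM in stressed plasma, against 20220, 33220 and 24910 CPM in stressed water (log2 fold change 1.48, SE 0.47), and was not called. Called was let-7d-5p, at 1752, 1843 and 3274 CPM in stressed plasma, against 286, 444 and 316 CPM in stressed water (log2 fold change 2.71, SE 0.40, FDR 0.00222). The other call, let-7f-5p, was at 0 in all water libraries and passed the filter through plasma alone. All 5 tested miR-30 rows had positive log2 fold changes of 0.44 to 1.42, and none was called. The RT-qPCR target miR-30b-5p is one of them. Stressed plasma held 2462, 3461 and 3180 CPM of it, against 1668, 1630 and 1734 CPM in stressed water (log2 fold change 0.86, SE 0.26, FDR 0.0336).

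In the miR-26 family miR-26d-5p was called, at 107.3, 291.9 and 222.96 CPM in stressed plasma, against 44.7, 26.8 and 49.1 CPM in stressed water (log2 fold change 2.37, SE 0.57). This call was lost with the DESeq2 test, with DESeq2 size factors and with the control plasma and control water libraries added to the fit. The Hox cluster relatives went apart from each other. Called higher was miR-10a-5p at 5360, 1834 and 2603 CPM in stressed plasma, against 722, 512 and 941 CPM in stressed water (log2 fold change 2.17, SE 0.50, FDR 0.0132). The call of miR-10a-5p was lost with the DESeq2 test, with DESeq2 size factors, with near-identical rows kept once and without plasma replicate 1. Its relative miR-10b-5p was at 30370, 20870 and 21800 CPM in stressed plasma, against 61790, 44750 and 176500 CPM in stressed water. With a log2 fold change of -1.95 (SE 0.58, FDR 0.0329) it was not called, and it was called without plasma replicate 1 or without water replicate 1 or 2. It was also called with the DESeq2 test, with DESeq2 size factors and with near-identical rows kept once. In 5 lists no tested member was called (neural with 8 tested, miR-23, miR-24 and miR-27 with 10, miR-30 with 5, miR-146 with 2, and miR-462 and miR-731 with 2). The neural list is led by the miR-128 rows, which have nearly the same counts. They had a log2 fold change of 1.95 (SE 0.26, FDR 0.00152 for miR-128-4-5p), and library totals put them past the threshold.

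**Figure D4:**
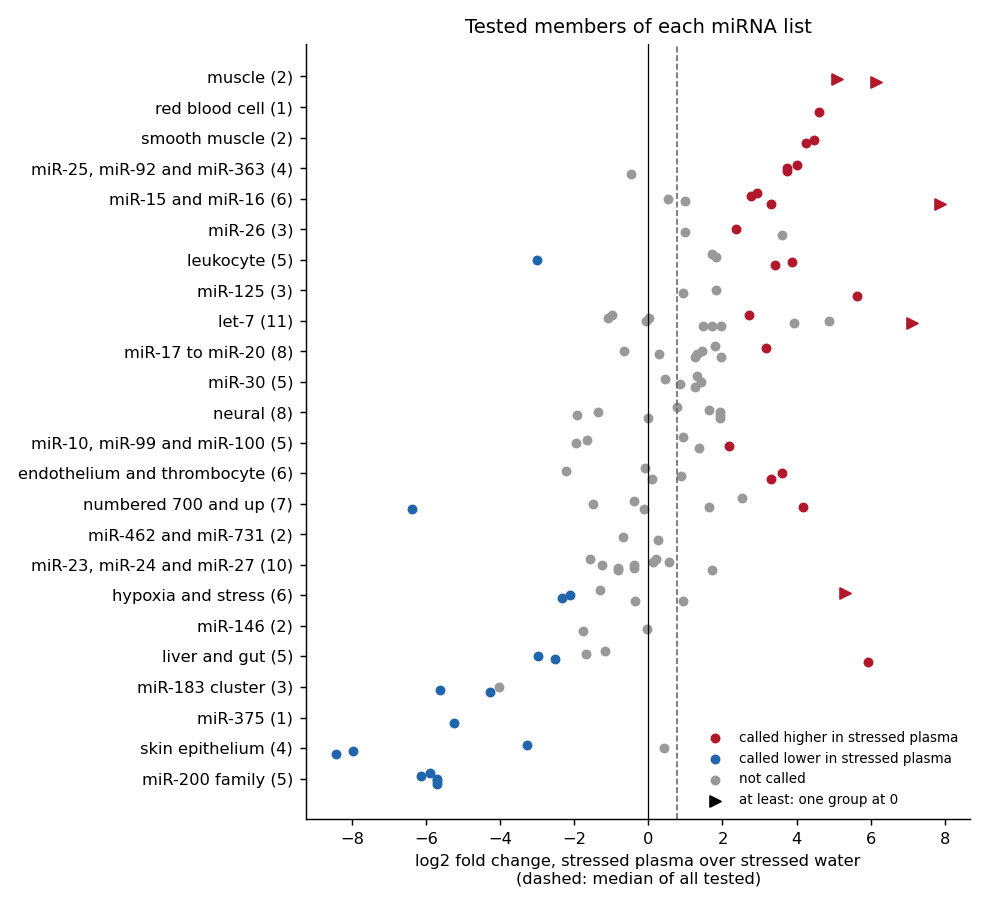
Log2 fold change, stressed plasma over stressed water, of each tested member of 24 lists (number tested in parentheses), ordered by the list's median; red was called higher in plasma, blue called lower and grey not called, and triangles are lower bounds where a group was at 0. The dashed line is the median of all tested, 0.78. The 4 epithelial lists at the foot hold 11 of the 20 miRNAs called lower in plasma, of which 3 are in no list and are not drawn.

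Some rows were read in one group alone, and for these the other rows of the same number were set beside them. Such rows passed the filter through that group, so their calls are not support beyond the values. Of the 179 rows with a count, 18 had counts in all 3 plasma libraries and none in water, and 2 had counts in all 3 water libraries and none in plasma. The RT-qPCR target miR-16b-5p had 118, 71.7 and 39.4 CPM in stressed plasma and 0 in all stressed water libraries, at least 235-fold higher, and all rows of miR-16 summed gave a log2 fold change of 2.78 (SE 0.47, FDR 0.00222). In let-7f-5p stressed plasma held 21.1, 47.7 and 65.3 CPM, at least 138-fold higher than in stressed water, while the let-7 sum was not called (1.29, SE 0.46). In miR-29a-3p stressed plasma held 18.3, 13.8 and 6.21 CPM, at least 39.4-fold higher, and the miR-29 sum was -0.46 (SE 0.40) and not called. With 17.03, 9.51 and 9.96 CPM in stressed plasma, miR-216b-5p was at least 37.6-fold higher. The miR-216 sum was also at 0 in all water libraries and passed the filter through plasma alone, so its call adds nothing.

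In the other direction, miR-140-5p, a miRNA of cartilage, was at 0 in all plasma libraries and had 61.2, 42.0 and 57.9 CPM in stressed water, which is at least 401-fold lower in plasma; no other row of that number was tested. For miR-22b-5p the plasma libraries were at 0 and water held 33.6, 60.5 and 35.3 CPM, at least 322-fold lower in plasma. The far more abundant row miR-22a-5p overlapped at 8221, 2949 and 6502 CPM in stressed plasma, against 4736, 4548 and 4927 CPM in stressed water, and the miR-22 sum was not called (0.09, SE 0.40). Of the tested rows, 22 were at 0 in 1 or 2 libraries of a group and counted in the rest. The largest was miR-26a-5p, with 37400, 112900 and 69260 CPM in stressed plasma, against 9587, 8454 and 0 CPM in stressed water. It was not called (log2 fold change 3.61, SE 2.30, FDR 0.245), and without water replicate 3 it was, at 2.88 (FDR 0.0136). The miR-26 sum was called higher in plasma (3.28, SE 1.19, FDR 0.0519). Likewise let-7b-5p was at 4032, 2381 and 3892 CPM in stressed plasma, against 675, 0 and 0 CPM in stressed water, and was not called.

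More of the known miRNAs were counted in plasma. With at least 1 count there were 158, 166 and 160 rows in the stressed plasma libraries, against at most 130 in a stressed water library, a mean of 161 ± 4.16 in plasma and 127.7 ± 2.08 in water (SD, n = 3 each; exact permutation test, two-sided p = 0.1, the smallest that 3 against 3 allows). Thinning every library to 2683945 known counts, the depth of the shallowest, left 159 ± 0.803 in plasma and 127.7 ± 2.07 in water. The 10 most abundant rows took 71.6%, 85.6% and 80.0% of known counts in stressed plasma, against 83.7%, 80.6% and 84.6% in stressed water, and the groups overlapped (exact permutation test, two-sided p = 0.6). This difference of -3.90 percentage points came down to -0.158 without plasma replicate 1.

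Before the air exposure most of the called miRNAs had the same direction. In a fit over 12 libraries that adds control plasma and control water, 44 of the 49 called miRNAs had the same direction in control plasma against control water. The same thresholds were passed there by 34 of the 49, beside 49 of all 150 tested in that fit. How many of all tested miRNAs had the same direction was not counted, so that 44 of 49 has no share over all tested beside it. The opposite direction was found for miR-182-5p, miR-183-5p, miR-22b-5p and miR-26d-5p, none of them called in the controls, and each opposite sign went with 1 control library. CPM of control libraries were scaled over the 12 libraries of this fit. Control plasma replicate 2 had 12890 CPM of miR-182-5p and 24850 CPM of miR-183-5p, while the other control plasma libraries had 51.8 and 349.5 CPM and 383 and 1374 CPM, below all control water libraries. For miR-22b-5p control plasma replicate 1 had 156.4 CPM and the others 0, and for miR-26d-5p control water replicate 3 had 11550 CPM and the others 0. At 0 in all control libraries was miR-16b-5p. Control water was shallower, with 283739 to 528914 known counts. The difference between the stressed and the control contrast passed the test for 5 of 150 miRNAs (3.33%), for 3 of them with the replicate block, and for 0 of 84 when rows of a number were summed (edgeR; 8 of 84 at an unadjusted p of 0.05 or less). In stressed mucus the skin epithelium list took 8.17% to 11.3% of known counts and the miR-200 family 3.90% to 5.68%. Stressed mucus held no muscle list counts, and 10 of the 29 miRNAs called higher in plasma and none of the 20 called lower were at 0 in all 3 stressed mucus libraries, beside 27 of all tested (19.7%). Stressed mucus was shallower, with 344347 to 1322996 known counts, and differences from mucus were not tested.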

How the data were processed

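Small RNA libraries of stressed plasma and stressed water (3 each) were analysed, with control plasma and control water as a second contrast. Per the submitters' processing notes and the study's methods, the authors trimmed reads with cutadapt 2.10, aligned them with Bowtie 1.1.1 to the trout genome Omyk_1.0 and counted them with miRDeep2 against Atlantic salmon miRNAs. The deposited table holds estimated counts, not normalized, of known and predicted miRNAs. All values are whole, so rounding changed none. A mature miRNA with several precursors has their mean, so totals are not reads. The authors' deposited result tables (log2 fold changes, mean expression, p-values and FDR of their comparisons) were not used.

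Only known rows were used, rows with identical counts once (18 copies dropped). Low counts were removed with filterByExpr, libraries scaled by TMM and tested with the quasi-likelihood test of edgeR 4.0.16 (limma 3.58.1, R 4.3.3), with p-values adjusted by Benjamini and Hochberg over all tested rows. DESeq2 1.42.0 served as an alternative, as did other scalings, no filter, all rows kept, a replicate block, the fit over 12 libraries, the exact test of edgeR and leaving out each library; keeping near-identical rows (within 5%) once and summing rows by number were added after the data were seen. The steps were also run on simulated counts with a dispersion below the common value of 0.602 fitted here. That run therefore does not measure the error rate in these data. Single values were compared by exact permutation in Python 3.11 with scipy 1.17.1. Folds against a group at 0 use a floor of 3 counts over the group, and limits from counts cover counting error only. Replicates are separate experimental replicates of the air exposure.

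Named miRNAs were those called with non-overlapping values and the 12 largest changes in each direction, the 8 most abundant of each group, up to 4 called members per list, the RT-qPCR targets, those called in the stressed against control test and up to 6 rows at 0 in one group; others named were chosen after their values were seen. The 25 lists go by miRNA number, 1 of them (miR-430) with no row, and lists and comparison were chosen with earlier results of these data known. Mature sequences were not analysed here.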

Additional observations from a re-analysis of the deposited data

Results flagged for a closer look

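The contrast of plasma and water differed between stressed and control samples in 5 of 150 tested miRNAs (edgeR, interaction, all tested together). The value is the log2 fold change of stressed plasma over stressed water minus that of control plasma over control water. CPM in this section were scaled over the 12 plasma and water libraries together, so those of stressed libraries differ from the values given above. For miR-30b-5p it was -15.8 (SE 1.12, FDR 6.0e-05): 2312, 4942 and 3042 CPM in stressed plasma, 1666, 1587 and 1538 CPM in stressed water, 2054, 4243 and 3887 CPM in control plasma, and 0 in all control water libraries. For miR-128-4-5p it was -14.6 (SE 1.22, FDR 1.1e-04), again with 0 in all control water libraries; the row miR-128-2-5p, nearly identical in the 6 stressed libraries but with 168 counts in control water replicate 3, was not called. As the fitted value of a row at 0 depends on the prior count, its size is no bound, and its SE does not measure its precision. For miR-26b-5p it was 5.75 (SE 0.81, FDR 0.00128), with 290, 833 and 378 CPM in stressed plasma, 249, 147.8 and 226 CPM in stressed water, 207.7, 788 and 470 CPM in control plasma and 10620, 10430 and 11650 CPM in control water. For miR-183-5p it was -7.35 (SE 1.75, FDR 0.0631), with control plasma at 383, 24850 and 1374 CPM, and without control plasma replicate 2 it was -4.02 (FDR 0.028). For miR-737-5p it was -7.93 (SE 1.95, FDR 0.0962), with 12.3 to 30.5 CPM in stressed plasma and 0 in all control water libraries. The rows miR-30b-5p, miR-26b-5p and miR-128-4-5p were called under each alternative in which they were tested, and miR-183-5p and miR-737-5p under 8 of 17. Summed over all rows of a number, miR-30 gave 0.34 (SE 0.46), miR-26 gave 1.64 (SE 1.35) and miR-128 gave -2.24 (SE 2.08), none called, and control water was the shallowest group. What part depth or the assignment of reads to rows has in these values was not tested.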

How the results depend on the processing

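Of the 49 called miRNAs 38 were called in each of the 16 alternatives without summed rows in which they were tested (3 near-identical rows were not tested in 1 of them), and none changed direction. Among the 38 are the 6 called rows at 0 in all water libraries and the 2 at 0 in all plasma libraries. These passed the filter through 1 group alone, so their stability is no support beyond the values. The counts stayed within 1.5 times of 49 calls (29 higher, 20 lower), except with no filter, which gave 51 higher in plasma (70 calls of 179 tested), and with rows of a number summed, which gave 32 calls of 77 tested, 18 of them higher; fewer rows are tested there. DESeq2 gave 62 calls, and leaving out 1 library gave 50 to 62 calls, 29 to 42 of them higher and 19 to 24 lower. The stressed against control test gave 5 calls, against 17 with DESeq2, 10 with no filter, 10 with near-identical rows once, 0 with rows summed and 3 to 13 leaving out 1 library, 13 without control water replicate 3; the cause was not tested. Same-numbered plasma and water libraries did not deviate together (correlations of -0.20, 0.05 and -0.03), so the data gave no sign of pairs; with the replicate block 49 miRNAs were called, 28 higher and 21 lower, 46 of them the same (lost were miR-19a-5p, miR-92b-3p and miR-301a-5p), and 3 in the stressed against control test. The block left the differences in detected miRNAs (33.7) and in the share of the top 10 (-3.90) as they are, with exact paired p = 0.25 and 0.75. The difference in detected miRNAs was 28.3 to 35.3 over all alternatives and 31.3 to 35.3 leaving out 1 library. That of the top 10 was -7.18 to -0.158 leaving out 1 library, and with all known rows kept it reversed to 1.95, as identical rows then count several times. The log2 fold change of miR-462a-5p reversed to -0.12 with DESeq2 and its size factors and lay between -0.073 and 0.347 leaving out 1 library, negative only without stressed water replicate 1. Known counts ran from 2683945 to 12627475 per library, and a miRNA at 0 was not counted, which does not show that it was absent. Some rows at 0 stood beside high counts in the same group. For miR-26a-5p the stressed water libraries had 33052, 23340 and 0 counts, and the cause was not tested.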
